A study of Canis lupus familiaris with 9 samples.

Results

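The genes described are 9 ligands and receptors of the GDNF family and of the neurotrophins, out of 15947 named genes on the array: the ligands GDNF, NTF3 and BDNF, the receptors RET, NTRK2, NTRK3 and NGFR, and the GDNF co-receptors GFRA1 and GFRA2. They were found by their symbol in the platform's table, and each was read from 1 probe set, the one with the highest mean over the 9 arrays. The arrays measured RNA from cultured cells of the dog (Canis lupus familiaris), 3 arrays each of skin-derived neural precursors (SKN), brain-derived neural precursors (Brain) and skin fibroblasts (Fibroblast). SKN cells began as neurospheres in a serum-free medium that held EGF, FGF and the supplement B-27, and fibroblasts had fetal bovine serum instead. For Brain the sources used here give neither the medium nor the tissue's handling. All 9 were untreated primary cultures, with no breed, age, sex or dog of origin in the labels. The effects of medium and of cell type therefore cannot be told apart. The labels do not state whether a group's 3 arrays stem from different animals, so the p-values cover no more than the spread among these samples, which may be technical.

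GDNF family ligands bind a co-receptor of the GFRA family that is tethered to the outer membrane, and the complex then activates RET, a receptor tyrosine kinase. Neurotrophins bind receptor kinases of the NTRK family and, with their precursors, also NGFR, the p75 receptor without a kinase. In the nervous system these factors act on the survival and growth of neurons, and NGFR and GFRA1 are also carried by immature and injured Schwann cells.

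Brain cultures carried far more RNA signal of the receptors GFRA1, GFRA2, NGFR and NTRK2 than either kind of skin culture, for NTRK2 by 1 of its 2 probe sets. NTF3 was higher in Brain and in SKN than in Fibroblast. BDNF was called lower in Brain than in Fibroblast, but that call was kept in only 1 of 9 removals of 1 array. No call was made for GDNF, RET or NTRK3 in any comparison of the main fit. A gene was called at a Benjamini-Hochberg adjusted p under 0.05 over all 32205 probe sets in limma's moderated test. Between Brain and Fibroblast 5 of the 9 genes were called higher and 1 lower, where 27% of all named genes were called, 13.8% higher and 13.2% lower. Between SKN and Brain 4 were called lower and 0 higher, where 22.6% of named genes were called, 10.9% higher and 11.7% lower. Between SKN and Fibroblast 1 was called higher and 0 lower, where 4.55% were called, 2.45% higher and 2.1% lower, and 3 of the 9 had an unadjusted p under 0.05. The median difference over the 9 genes was 1.73 log2 units between Brain and Fibroblast, -1.39 between SKN and Brain and -0.09 between SKN and Fibroblast, against -0.06, 0.01 and -0.04 over all named genes. Each pair of these comparisons shares 3 arrays. The 9 genes were chosen with earlier results of these data known, so their counts beside the background are descriptive and no test.

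**Figure D1:**
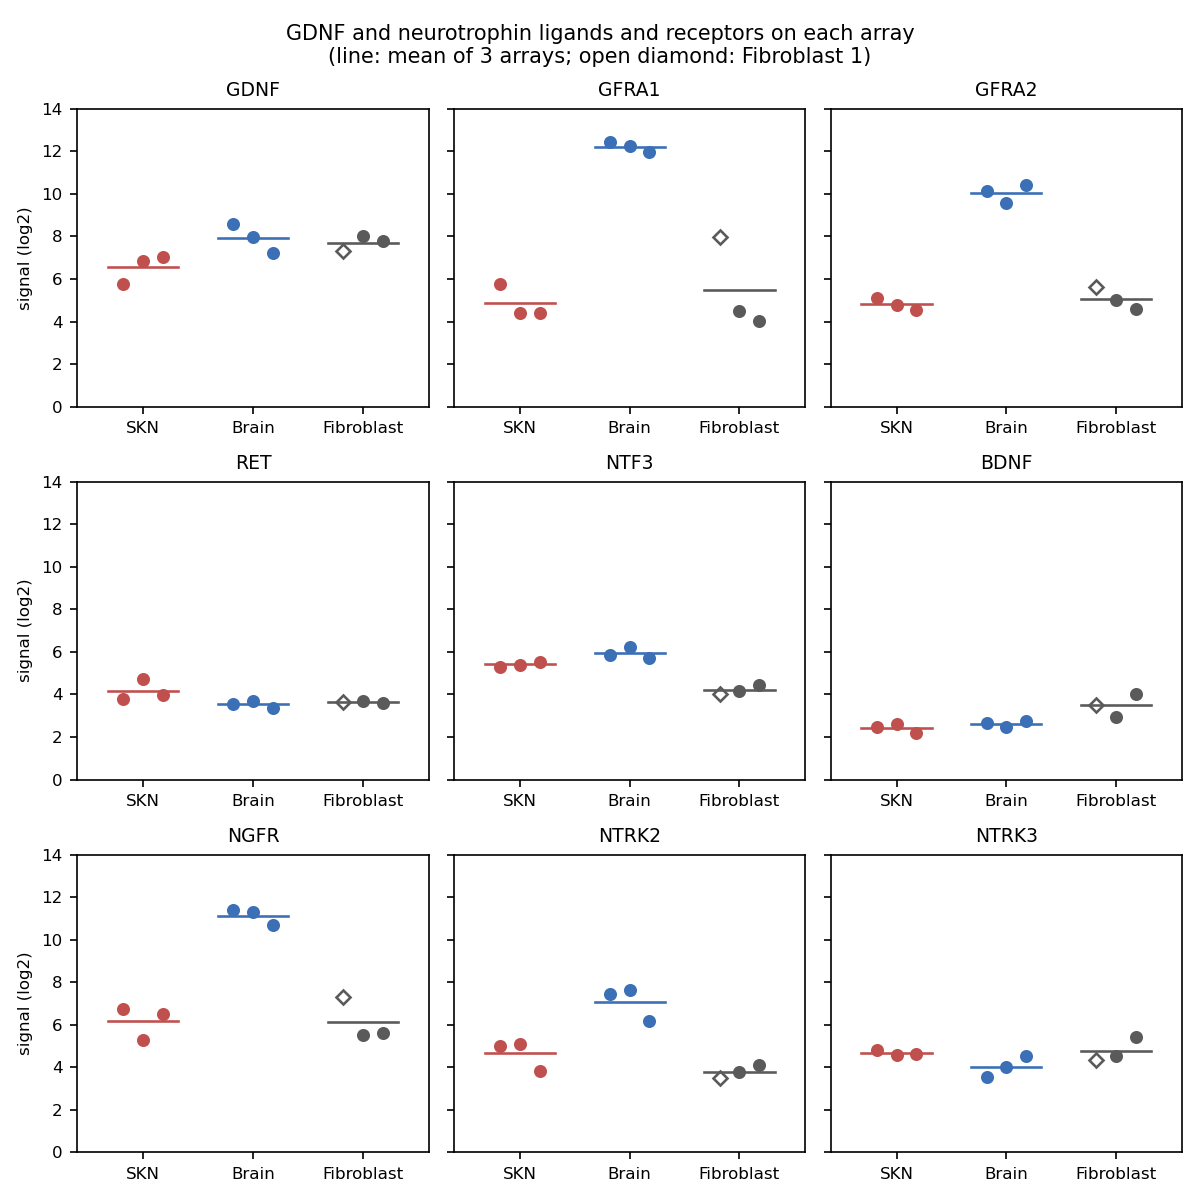
Log2 signal of the 9 ligands and receptors on each array, with 1 point for each array and a line at the mean of 3; the open diamond is Fibroblast 1. GFRA1 lies between 11.96 and 12.44 on the Brain arrays, and between 4.04 and 7.99 on the other 6.

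The values are log2 signals, so 1 unit is a 2-fold difference in signal, and a level is compared only with the same gene's level on other arrays. A reading was termed low when it fell under the lower quartile of its own array, which lay at 2.89 to 2.96. The array medians lay between 4.71 and 4.79. In cultures of mixed cells, fewer cells of a type and less RNA per cell cannot be told apart.

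The labelled cell types were set against marker lists. The fibroblast matrix list (15 of 15 genes measured) averaged 10.60 to 10.91 on the SKN arrays, 5.49 to 6.72 on the Brain arrays and 10.27 to 10.59 on the Fibroblast arrays. The neural stem and progenitor list (9 genes measured) averaged 5.48 to 5.59 on the SKN, 6.08 to 6.40 on the Brain and 5.53 to 5.86 on the Fibroblast arrays. Of its genes, NES and NOTCH1 were higher on every Brain array than on the other 6, and the rest overlapped. SOX2, a transcription factor of neural stem cells, read 7.36, 7.16 and 5.34 on the Brain arrays, against 4.89 to 5.57 on the SKN and 5.00 to 5.35 on the Fibroblast arrays. PROM1 averaged 3.22 in SKN, 2.38 in Brain and 2.89 in Fibroblast. The list of 15 measured neural crest and Schwann cell genes averaged 5.80 to 6.11 on the SKN, 8.03 to 8.39 on the Brain and 5.67 to 6.44 on the Fibroblast arrays. SKN arrays were thus close to Fibroblast in the means of the fibroblast matrix list and of the crest and Schwann cell list. Single genes of the crest and Schwann cell list differed both ways. GAS7 averaged 8.43 in SKN and 5.74 in Fibroblast, and TFAP2A 3.46 and 5.01. The oligodendrocyte list (10 genes measured) averaged 4.96 to 5.02 on the SKN, 6.27 to 6.51 on the Brain and 4.77 to 5.44 on the Fibroblast arrays. Of its genes, UGT8, ENPP6, CNP and MOG were higher on every Brain array than on the other 6, and PDGFRA and CSPG4 were lower. PDGFRA averaged 8.61 in SKN, 3.97 in Brain and 6.88 in Fibroblast. For NKX2-2, MBP, MAG and SOX8 the Brain readings overlapped with the others. The astrocyte list (9 genes) averaged 5.47 to 5.66 on the SKN, 4.50 to 4.63 on the Brain and 5.16 to 5.36 on the Fibroblast arrays. Its genes went both ways, with AQP4 averaging 2.69 in SKN, 5.12 in Brain and 2.79 in Fibroblast, and APOE 9.68, 5.32 and 8.06 in those groups. The part of these cell types in the differences of the 9 genes was not tested. Brain 3 stood apart with the highest fibroblast matrix mean of its group, 6.72 against 5.49 and 5.59, and COL1A1 at 8.25 against 5.28 and 5.13. Fibroblast 1 did not stand apart in that list, at 10.267 against 10.591 and 10.275 on Fibroblast 2 and 3. It differed from those arrays in other genes, which have their own account after the 9 genes.

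GFRA1, the co-receptor that GDNF prefers, gave the widest separation. It read 4.42 on SKN 2 and 3 and 5.75 on SKN 1, and 12.44, 12.27 and 11.96 on the Brain arrays. In the fibroblasts it read 7.99 on Fibroblast 1 and 4.48 and 4.04 on Fibroblast 2 and 3. Every Brain array was above every skin array, and SKN and Fibroblast overlapped. GFRA1 was higher in Brain than in Fibroblast by 6.73 ± 0.92 log2 units (SE, n = 3 and 3, adjusted p 0.00156), or 106-fold in signal. It was lower in SKN than in Brain by -7.36 ± 0.92 (adjusted p 0.00106). The difference of SKN from Fibroblast was -0.63 ± 0.92 (adjusted p 0.784), with a 95% interval of -2.74 to 1.48.

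The spread of GFRA1 lay mostly with Fibroblast 1. Without that array GFRA1 was 7.97 ± 0.41 higher in Brain than in Fibroblast (adjusted p 5.67e-05), and the difference of SKN from Fibroblast turned to 0.61 ± 0.41 (adjusted p 0.513). A separate GFRA1 probe set gave the same picture, with 4.93, 4.12 and 4.12 in SKN, 12.13, 11.88 and 11.53 in Brain, and 7.48, 3.81 and 4.38 in Fibroblast. By that probe set GFRA1 was 6.62 ± 0.82 higher in Brain than in Fibroblast (adjusted p 9.54e-04).

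GFRA2, the co-receptor of the related ligand neurturin, followed GFRA1 with less spread. It read 5.11, 4.76 and 4.55 in SKN, 10.12, 9.58 and 10.44 in Brain, and 5.63, 5.03 and 4.58 in Fibroblast. The Brain arrays lay apart from the rest, and the skin cultures overlapped. GFRA2 was higher in Brain than in Fibroblast by 4.97 ± 0.30 (adjusted p 3.35e-05) and lower in SKN than in Brain by -5.24 ± 0.30 (adjusted p 1.96e-05). Between SKN and Fibroblast the difference was -0.27 ± 0.30, with a 95% interval of -0.97 to 0.43 (adjusted p 0.711).

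RET, the kinase through which the co-receptors signal, did not follow them. It read 3.77, 4.73 and 3.98 in SKN, 3.53, 3.71 and 3.35 in Brain, and 3.66, 3.71 and 3.58 in Fibroblast. All 9 readings were under their array's median and above its lower quartile. SKN lay above the other groups without overlap, by 0.63 ± 0.23 over Brain (adjusted p 0.104) and by 0.51 ± 0.23 over Fibroblast (adjusted p 0.312), and neither difference was called. SKN 2 was the highest RET reading, and without SKN 1 the difference from Brain reached 0.82 (adjusted p 0.0452). Between Brain and Fibroblast the RET difference was -0.12 ± 0.23, with a 95% interval of -0.64 to 0.40 (adjusted p 0.756).

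The ligand GDNF was read above the array medians in all 3 culture types, by a probe set whose gene identifier in the platform's table is not in the dog RefSeq table used here, where the symbol stands under another identifier. It gave 5.77, 6.82 and 7.04 in SKN, 8.60, 7.96 and 7.23 in Brain, and 7.32, 8.01 and 7.81 in Fibroblast. SKN lay below both other groups without overlap, and Brain spanned the Fibroblast values. The difference of SKN from Brain was -1.39 ± 0.42 (adjusted p 0.057) and that from Fibroblast -1.17 ± 0.42 (adjusted p 0.199), so neither was called. SKN 1 was the lowest and Brain 1 the highest GDNF array. Without Brain 3 the difference of SKN from Brain was -1.74 and was called (adjusted p 0.0318), as it was without Brain 3 and Fibroblast 1 together (0.0446) and when only the brighter 50% of probe sets were tested (0.0333). The 95% interval of Brain minus Fibroblast ran from -0.74 to 1.17.

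Among the neurotrophins, NTF3 (neurotrophin-3) was higher in both kinds of precursor than in fibroblasts. It read 5.31, 5.39 and 5.53 in SKN, 5.83, 6.25 and 5.71 in Brain, and 4.0, 4.17 and 4.45 in Fibroblast. The 3 groups did not overlap, with Brain the highest and Fibroblast the lowest. NTF3 was higher in Brain than in Fibroblast by 1.73 ± 0.17 (adjusted p 3.30e-04) and higher in SKN than in Fibroblast by 1.20 ± 0.17 (adjusted p 0.00874), or 2.30-fold in signal. It was the only one of the 9 genes called between SKN and Fibroblast. The difference of SKN from Brain was -0.52 ± 0.17 and was not called (adjusted p 0.0762, and 0.046 when only the brighter 50% of probe sets were tested).

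BDNF was the only one of the 9 genes called lower in Brain than in Fibroblast. It read 2.47, 2.59 and 2.20 in SKN, 2.65, 2.46 and 2.76 in Brain, and 3.51, 2.93 and 4.02 in Fibroblast. The readings were low on 7 of 9 arrays, all of SKN and Brain and Fibroblast 2, and the Brain and SKN readings all lay below the Fibroblast readings. BDNF differed by -0.86 ± 0.25 between Brain and Fibroblast (adjusted p 0.0438) and by -1.06 ± 0.25 between SKN and Fibroblast, which was not called (adjusted p 0.0638). The Brain call was kept in 1 of 9 removals of 1 array, without Fibroblast 2 (adjusted p 0.0087), and was lost in the other 8 (0.0581 to 0.124). It was also lost with the replicate number as a block (adjusted p 0.0638). Without Fibroblast 2 the difference between SKN and Fibroblast was called too (-1.34, adjusted p 0.021).

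**Figure D2:**
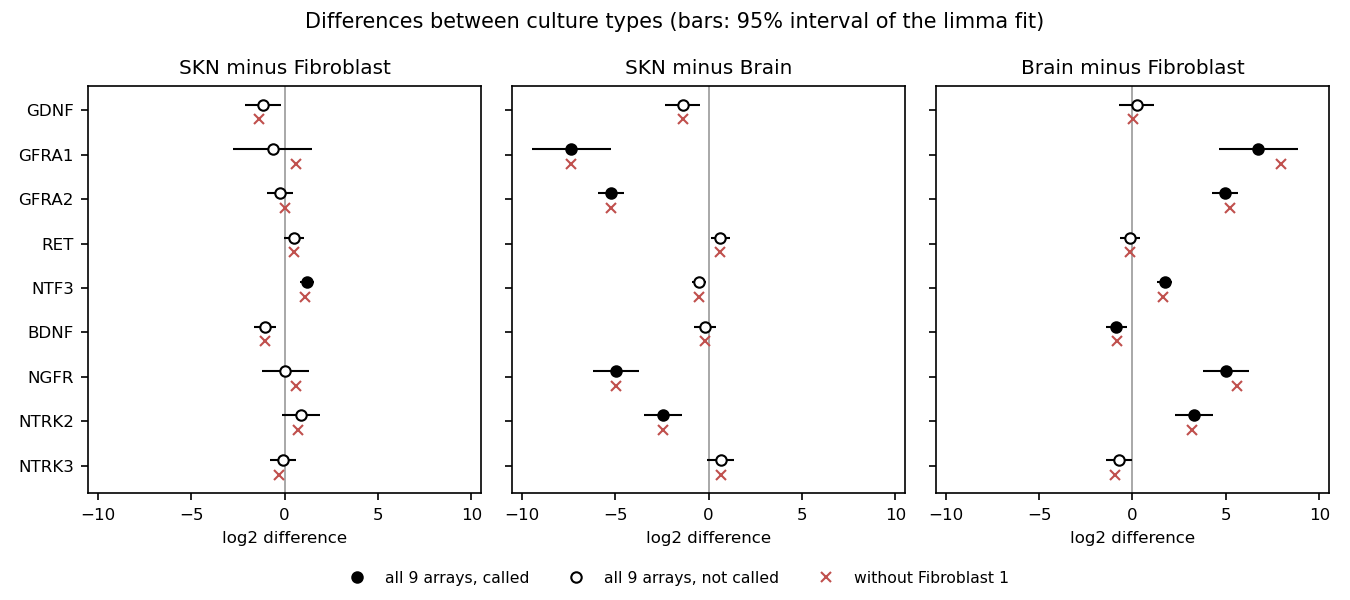
Log2 differences of the 9 genes in the 3 comparisons, with circles for the fit to all 9 arrays (filled where called), bars for the 95% interval and crosses for the fit without Fibroblast 1. GFRA1 has the widest bars, and its SKN minus Fibroblast value is 0.61 without Fibroblast 1, against -0.63 with it.

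NGFR, the p75 neurotrophin receptor, was also far higher in Brain than in the skin cultures. It read 6.75, 5.28 and 6.53 in SKN, 11.40, 11.29 and 10.70 in Brain, and 7.32, 5.50 and 5.60 in Fibroblast. Brain did not overlap with either skin culture, while SKN and Fibroblast overlapped and Fibroblast 1 was the highest skin array. NGFR was higher in Brain than in Fibroblast by 4.99 ± 0.54 (adjusted p 5.17e-04) and lower in SKN than in Brain by -4.94 ± 0.54 (adjusted p 5.16e-04). SKN and Fibroblast differed by 0.05 ± 0.54 (adjusted p 0.98), with a 95% interval of -1.19 to 1.29, and by 0.64 ± 0.43 without Fibroblast 1 (adjusted p 0.518).

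NTRK2, the receptor of BDNF, was measured by 2 probe sets that went apart. The brighter one read 5.01, 5.11 and 3.84 in SKN, 7.43, 7.66 and 6.19 in Brain, and 3.51, 3.77 and 4.09 in Fibroblast. Brain lay above both skin cultures without overlap, with Brain 3 the lowest of its group. By this probe set NTRK2 was higher in Brain than in Fibroblast by 3.30 ± 0.45 (adjusted p 0.00146) and lower in SKN than in Brain by -2.44 ± 0.45 (adjusted p 0.00689). SKN exceeded Fibroblast by 0.86 ± 0.45, which was not called (adjusted p 0.388), and SKN 3 fell among the Fibroblast readings.

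The dimmer NTRK2 probe set read between 3.43 and 3.98 on all 9 arrays, with 3.72, 3.43 and 3.61 in SKN, 3.88, 3.72 and 3.60 in Brain, and 3.87, 3.72 and 3.97 in Fibroblast. Its difference of Brain from Fibroblast was -0.12 ± 0.13 (adjusted p 0.545). The platform's table does not say which part of the gene or which transcript either NTRK2 probe set covers, so the calls on NTRK2 hold for 1 of its 2 probe sets.

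**Figure D3:**
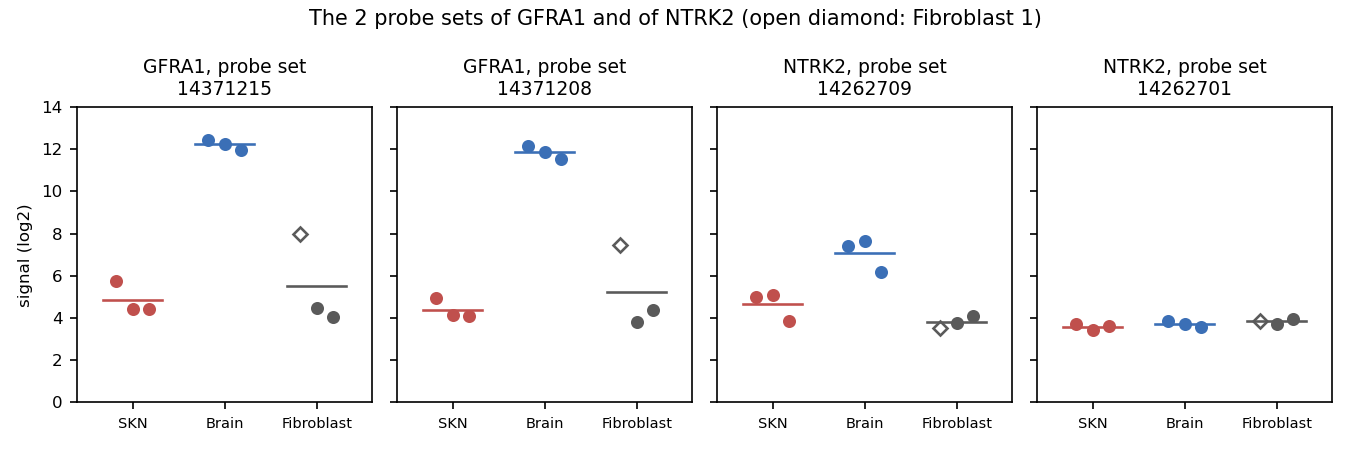
Log2 signal on each array for the 2 probe sets of GFRA1 and the 2 of NTRK2, with 1 point for each array, a line at each mean and an open diamond for Fibroblast 1. The GFRA1 pair separates Brain alike, whereas only the brighter NTRK2 probe set, at 6.19 to 7.66 in Brain, does so.

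NTRK3, the receptor that neurotrophin-3 prefers, was called in no comparison. It read 4.80, 4.59 and 4.64 in SKN, 3.56, 4.02 and 4.52 in Brain, and 4.36, 4.52 and 5.42 in Fibroblast. Brain held the lowest readings but overlapped with Fibroblast. The difference of SKN from Brain was 0.64 ± 0.31 (adjusted p 0.221), that of Brain from Fibroblast -0.73 ± 0.31 (adjusted p 0.139) and that of SKN from Fibroblast -0.09 ± 0.31 (adjusted p 0.919). At an unadjusted p under 0.05 NTRK3 passed between Brain and Fibroblast (p 0.0441) and not in the other comparisons.

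Counted by overlap alone, 2 of the 9 genes lay higher (NTF3 and RET) and 2 lower (GDNF and BDNF) in SKN than in Fibroblast without overlap, where 26.7% of named genes did not overlap, 11.7% higher and 15% lower. Between SKN and Brain 2 lay higher (RET and NTRK3) and 6 lower, against 40% of named genes, 20.2% higher and 19.7% lower. Between Brain and Fibroblast 5 lay higher and 1 lower, against 44.3%, 20.8% higher and 23.5% lower. Of the 11 calls on the 9 genes, 10 were kept in each of the 9 removals of 1 array, and the exception was BDNF between Brain and Fibroblast.

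Fibroblast 1 was set apart from Fibroblast 2 and 3, with no test since it is 1 array. Of the 9 genes, 2 were higher there by at least 1 log2 unit, where 1.49% of named genes were, and 0 were lower by as much, where 0.878% were, or 2.37% in either direction. They were GFRA1, at 7.99 against a mean of 4.26 on Fibroblast 2 and 3, and NGFR, at 7.32 against 5.55. GFRA1 and NGFR stood in Fibroblast 1 at 5.30% and 7.12% of the mean Brain signal, against 0.399% and 2.09% in Fibroblast 2 and 3. For GFRA2 these shares were 4.68% and 2.65%. They went the other way for NTRK2, at 8.35% and 11.2%, and for NTF3, at 26.2% and 32.5%. GFRA2 was higher by 0.82, while Fibroblast 2 and 3 differed by 0.45 between themselves. NTRK2 was lower in Fibroblast 1 by -0.42, NTRK3 by -0.61, GDNF by -0.59 and NTF3 by -0.31, and BDNF and RET were within 0.04 of the other mean. In Brain, GFRA1, NGFR and NTRK2 averaged 12.22, 11.13 and 7.09, against 4.26, 5.55 and 3.93 on Fibroblast 2 and 3.

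Some markers of Schwann cells and crest, and of oligodendrocytes, were higher on Fibroblast 1 as well. Of the 15 measured crest and Schwann cell genes, 5 were higher in Fibroblast 1 by at least 1 log2 unit and 1 was lower. The 5 were CDH19, a cadherin of Schwann cell precursors (5.86 against 2.48), GAS7 (7.61 against 4.80), the endothelin receptor EDNRB (5.42 against 3.15), the neuregulin receptor ERBB3 (5.68 against 4.05) and the adhesion molecule L1CAM (6.61 against 5.34). CDH6, a cadherin, was lower there (5.49 against 7.03). The mean over the list was 6.44 on Fibroblast 1, and 6.01 and 5.67 on Fibroblast 2 and 3, the median difference was 0.25, and 6 of the 15 were below 0. Of the 10 measured oligodendrocyte genes, 3 were higher on Fibroblast 1 by at least 1 log2 unit and 0 lower: UGT8 (5.84 against 3.11), ENPP6 (4.76 against 3.17) and PDGFRA, which fibroblasts also carry (7.69 against 6.48). That list averaged 5.44 on Fibroblast 1, and 4.86 and 4.77 on Fibroblast 2 and 3. SOX10 read 6.31 on Fibroblast 1 against a mean of 6.03 on Fibroblast 2 and 3. Among the 251 named genes at least 3 log2 units higher in Brain than in Fibroblast 2 and 3, 122 were higher in Fibroblast 1 by at least 1 unit and 2 lower, both differences being taken from the same Fibroblast mean. The part of other cells in these Fibroblast 1 readings was not tested.

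**Figure D4:**
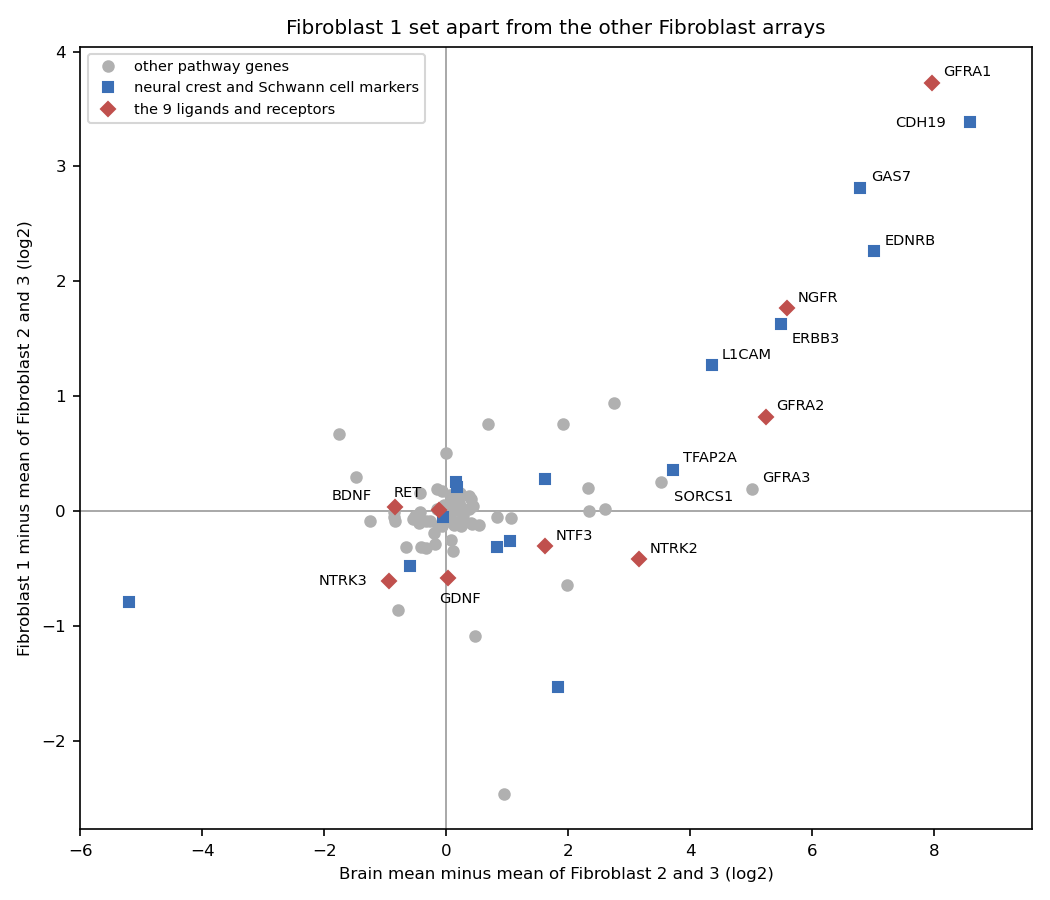
Fibroblast 1 minus the mean of Fibroblast 2 and 3 (vertical, log2) against the Brain mean minus that same mean (horizontal, log2), for the 9 genes, the other pathway genes and the crest and Schwann cell markers. GFRA1 (3.73) and NGFR (1.77) lie high beside CDH19 (3.38) and ERBB3 (1.63), while NTRK2 lies at -0.42 and GFRA3 at 0.20.

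With Fibroblast 1 left out, GFRA1, GFRA2, NGFR, NTRK2 and NTF3 were still called higher in Brain than in Fibroblast. The differences were 5.24 ± 0.29 for GFRA2 (adjusted p 7.74e-05), 5.58 ± 0.43 for NGFR (3.32e-04), 3.16 ± 0.52 for NTRK2 (0.00726) and 1.62 ± 0.19 for NTF3 (0.00176). NTF3 was still called higher in SKN than in Fibroblast (1.10 ± 0.19, adjusted p 0.0308). BDNF kept its value between Brain and Fibroblast (-0.85 ± 0.30) and lost its call (adjusted p 0.102).

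The other genes of both pathways were taken from 5 lists of ligands and receptors, proneurotrophin processing enzymes, adaptors and effectors, and genes that these factors induce in other cells, with 66 of 73 measured. Between Brain and Fibroblast 10 of the 66 were called higher and 7 lower, near the 13.8% and 13.2% of all named genes. Between SKN and Brain 14 were higher and 12 lower, against 10.9% and 11.7% of named genes, and between SKN and Fibroblast 7 higher and 1 lower, against 2.45% and 2.1%. Their median difference was 0.07 between Brain and Fibroblast, -0.02 between SKN and Brain and 0.03 between SKN and Fibroblast. The choice of these 5 lists was also made with earlier results known, so counts within them are descriptive.

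Of the other GDNF family receptors, GFRA3, the co-receptor of artemin, repeated the pattern of GFRA1 and GFRA2. It read 3.59, 3.65 and 3.37 in SKN, 6.82, 9.58 and 8.57 in Brain, and 3.51, 3.33 and 3.29 in Fibroblast, and Fibroblast 1 did not stand apart. GFRA3 was higher in Brain than in Fibroblast by 4.94 ± 0.57 (adjusted p 6.70e-04) and lower in SKN than in Brain by -4.79 ± 0.57 (adjusted p 7.69e-04). NCAM1, an adhesion molecule that can bind GDNF with GFRA1 in the absence of RET, was higher in Brain than in Fibroblast by 2.43 ± 0.56 (adjusted p 0.0163) and lower in SKN than in Brain by -2.70 ± 0.56 (adjusted p 0.0119). The NCAM1 call against Fibroblast ended without Brain 2 (adjusted p 0.0507). SDC3, a heparan sulfate proteoglycan that binds GDNF, was higher in Brain by 2.19 ± 0.30 (adjusted p 0.00152) and lower in SKN than in Brain by -1.86 ± 0.30 (adjusted p 0.00363).

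GAS1, a membrane protein related to the GFRA family, went the other way: it averaged 5.79 in SKN, 4.77 in Brain and 5.61 in Fibroblast. It was lower in Brain than in Fibroblast by -0.84 ± 0.13 (adjusted p 0.00316) and higher in SKN than in Brain by 1.02 ± 0.13 (adjusted p 0.00137). The ligands NRTN and PSPN, the co-receptors GFRA4 and GFRAL and the ligand GDF15 were called in no comparison, and their differences lay between -0.45 and 0.23. Without Fibroblast 3, NRTN was called lower in Brain than in Fibroblast (-0.57, adjusted p 0.0435). NRTN, the ligand that GFRA2 prefers, averaged 4.53 in SKN, 4.39 in Brain and 4.83 in Fibroblast.

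Among other neurotrophin genes, SORCS1, a sorting receptor of the sortilin family, separated all 3 cultures. It read 3.42, 3.73 and 3.13 in SKN, 8.45, 8.77 and 8.99 in Brain, and 5.47, 5.95 and 4.49 in Fibroblast. SORCS1 was higher in Brain than in Fibroblast by 3.43 ± 0.35 (adjusted p 3.71e-04) and lower in SKN than in Brain by -5.31 ± 0.35 (adjusted p 3.70e-05). It was also lower in SKN than in Fibroblast by -1.88 ± 0.35 (adjusted p 0.0247), and that call was lost in 4 of 9 removals of 1 array: Fibroblast 1 (adjusted p 0.074), Fibroblast 2 (0.0627), SKN 1 (0.08) and SKN 3 (0.0846). SORT1, sortilin itself, NTF4, SORCS2, SORCS3, SORL1, LINGO1, RTN4R and TNFRSF19 were called in no comparison, with differences between -0.79 and 0.84. Of these, LINGO1 was called lower in SKN than in Brain without Brain 3 (adjusted p 0.0127), and RTN4R, the Nogo receptor, higher in Brain than in Fibroblast without Fibroblast 2 or without SKN 2 (0.0384 each).

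**Figure D5:**
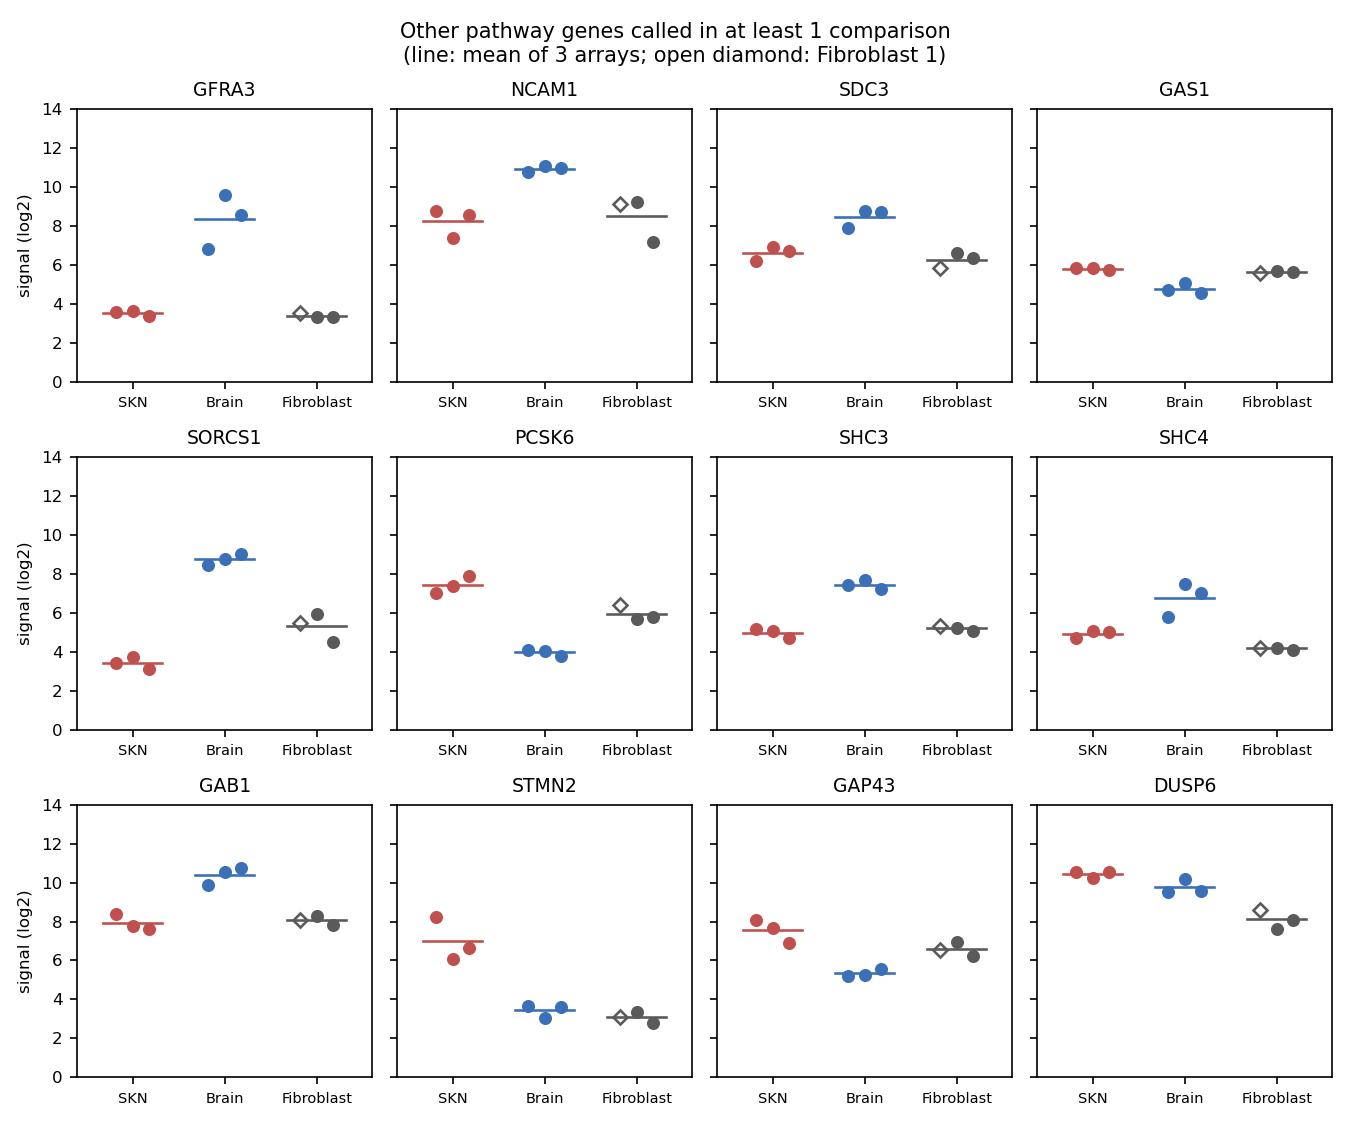
Log2 signal on each array of 12 other pathway genes called in at least 1 comparison, with 1 point for each array, a line at each mean and an open diamond for Fibroblast 1. GFRA3, SORCS1 and SHC3 separate Brain upwards, PCSK6 and GAP43 are lowest in Brain, and STMN2 is high in SKN, at 6.08 to 8.26.

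Adaptors of the receptor kinases were split. SHC3, a neuronal adaptor of NTRK receptors, averaged 4.96 in SKN, 7.44 in Brain and 5.19 in Fibroblast, and was higher in Brain than in Fibroblast by 2.25 ± 0.16 (adjusted p 7.81e-05). Its relative SHC4 was higher in Brain than in Fibroblast by 2.59 ± 0.36 (adjusted p 0.00174), and the docking protein GAB1 by 2.34 ± 0.27 (adjusted p 6.49e-04). RIPK2, a kinase that can bind NGFR, was lower in Brain than in Fibroblast by -1.58 ± 0.33 (adjusted p 0.0105). The exchange factor RAPGEF1 was lower in Brain than in Fibroblast by -0.86 ± 0.15 (adjusted p 0.00454), and PLCG1, a phospholipase recruited by NTRK receptors, by -0.82 ± 0.15 (adjusted p 0.00559). PLCG1 was higher in SKN than in Brain by 1.48 ± 0.15 (adjusted p 3.05e-04). In SKN the adaptor SH2B3 exceeded Fibroblast by 1.31 ± 0.20 (adjusted p 0.0119) and DOK1 by 0.91 ± 0.15 (adjusted p 0.0179). Over the 30 measured adaptors 4 were called higher and 4 lower between Brain and Fibroblast, 7 higher and 5 lower between SKN and Brain, and 2 higher and 0 lower between SKN and Fibroblast. Over all named genes 27%, 22.6% and 4.55% were called in these comparisons, so the adaptors' count between Brain and Fibroblast was near that background. The SH2B3 call ended without Fibroblast 3 (adjusted p 0.0508), and that of DOK1 without Fibroblast 2 (0.0566), Fibroblast 3 (0.0511), SKN 1 (0.0665) or SKN 3 (0.0655).

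Of the processing enzymes, PCSK6, a proprotein convertase, was highest in SKN, with a mean of 7.42 against 3.96 in Brain and 5.95 in Fibroblast. It was higher in SKN than in Brain by 3.46 ± 0.25 (adjusted p 6.22e-05), higher in SKN than in Fibroblast by 1.47 ± 0.25 (adjusted p 0.0186) and lower in Brain than in Fibroblast by -1.99 ± 0.25 (adjusted p 0.00105). The PCSK6 call between SKN and Fibroblast ended without Fibroblast 2 (adjusted p 0.0666), Fibroblast 3 (0.0765), SKN 2 (0.0515) or SKN 3 (0.0505), and with the replicate block (0.0556). PLAT, tissue plasminogen activator, was higher in Brain than in Fibroblast by 1.08 ± 0.27 (adjusted p 0.0238), a call that ended without Fibroblast 1 (0.0647), Fibroblast 2 (0.0773) or Brain 1 (0.0705) and with the replicate block (0.0536).

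Of 10 measured genes that neurotrophins or GDNF induce in other cells, 4 were higher in SKN than in Fibroblast and 0 lower, and 5 were higher and 1 lower in SKN than in Brain. Of all named genes 2.45% were called higher and 2.1% lower in SKN than in Fibroblast, and 10.9% and 11.7% in SKN than in Brain. The SKN medium held EGF and FGF and the fibroblasts had serum, and the activity of the GDNF and neurotrophin pathways was not tested. STMN2, a microtubule regulator of growing neurons, read 8.26, 6.08 and 6.64 in SKN, 3.68, 3.06 and 3.61 in Brain, and 3.09, 3.35 and 2.80 in Fibroblast. All SKN readings of STMN2 lay above the other 6, and it was higher in SKN than in Brain by 3.54 ± 0.49 (adjusted p 0.00171) and than in Fibroblast by 3.91 ± 0.49 (0.00514). GAP43, a protein of growing axons, was higher in SKN than in Brain by 2.21 ± 0.30 (adjusted p 0.00156), and the ETS factor ETV4 by 1.86 ± 0.32 (adjusted p 0.00554). DUSP6, a phosphatase that acts on ERK, was higher in SKN than in Fibroblast by 2.33 ± 0.27 (adjusted p 0.00359) and higher in Brain than in Fibroblast by 1.65 ± 0.27 (adjusted p 0.0034). EGR1 and ETV4 were called higher in SKN than in Fibroblast as well (1.89 ± 0.35 and 1.73 ± 0.32), with adjusted p 0.0255 and 0.026. That EGR1 call ended without Fibroblast 2 (0.0819) or Fibroblast 3 (0.0922). That of ETV4 ended without Fibroblast 1 (0.0632), Fibroblast 2 (0.0726), Fibroblast 3 (0.0995), SKN 1 (0.0699) or SKN 2 (0.079), and with the replicate block (0.0621). GAP43 was lower in Brain than in Fibroblast by -1.23 ± 0.30 (adjusted p 0.0215), which ended without Fibroblast 1 (0.0521), Fibroblast 2 (0.0733), Brain 1 (0.0626) or Brain 2 (0.064).

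The named genes most like each separating member were found by the root mean square difference of the 9 centred log2 values, over 15946 genes. Nearest to GFRA1 were NCAM2, a neural cell adhesion molecule (0.73), the cytokine IL33 (0.73) and UGT8, an enzyme of myelin lipid synthesis (0.74), where the median gene stood at 3.53. Fibroblast 1 was among the 9 arrays of the distance, so the choice of genes near GFRA1 favoured those that read high there as well. NCAM2 read 6.57 on Fibroblast 1 against a mean of 3.08 on Fibroblast 2 and 3, IL33 7.29 against 3.61 and UGT8 5.84 against 3.11. Nearest to GFRA2 were the protocadherin PCDH1 (0.23), ERBB3 (0.28) and FEZ1, a protein of axon growth (0.29), with the median gene at 2.46. The transcription factor SOX5 (0.41), FEZ1 (0.48) and LGI3 (0.52) came nearest to NGFR, with the median gene at 2.45. Nearest to NTRK2 were the ion exchangers SLC24A2 (0.45) and SLC9A5 (0.48) and the GTPase regulator ARHGAP24 (0.46), with the median gene at 1.52. Among the 9 genes themselves, GFRA2 and NGFR were the closest of the 4 separating receptors (0.60), and GFRA1 and NTRK2 the farthest apart (2.40). The values were centred and not scaled, so the distances also follow the size of each gene's differences. Group means spanned 7.36 log2 units for GFRA1 and 3.30 for NTRK2, and 5.24 for GFRA2 and 4.99 for NGFR. These distances describe 9 arrays in 3 groups and carry no test.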

How the data were processed

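RNA from 9 dog cell cultures had been labelled as biotinylated cRNA and hybridised to 1 Affymetrix array each, per the labels' protocols. The authors deposited 1 table of log2 signals, 32205 probe sets by 9 arrays. MAS5, RMA and Partek are named, per the submitters' processing notes, but not what each did. No header gives the log base, and base 2 was taken from the spread of the values (0.56 to 13.47) and the like quartiles of all arrays. The values were used as deposited, with no filter and no detection calls, and the precision is limited by having 3 arrays per group.

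The platform's table gave 16545 probe sets 1 symbol, 370 several and 15290 no entry. Of the 9 genes, 8 matched the dog RefSeq table (UU_Cfam_GSD_1.0) by gene identifier, and GDNF by symbol alone, under another identifier. No table of sequences or coordinates was used here.

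Comparisons used limma 3.58.1 in R 4.3.3: 1 coefficient per group fitted to all 9 arrays (6 residual and 2.41 prior degrees of freedom), eBayes without trend, 2-sided tests, and Benjamini-Hochberg adjustment across the whole table. The fit was also run on simulated data with independent noise and no array that stands apart, so that run does not cover arrays such as Fibroblast 1. The 9 genes and the pathway and marker lists were chosen with earlier results of these data known. All 9 genes and all other ligands and receptors were named, with called, non-overlapping genes of the remaining pathway lists up to the 10 largest differences per comparison, and the 3 nearest genes of those among the 9 whose group means span at least 2 log2 units. Alternatives changed the arrays in the fit, the replicate block, moderation, array weights, normalization, a filter on low values and the probe set.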

Additional observations from a re-analysis of the deposited data

How the results depend on the processing

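The 9 genes had 483 values under alternatives, of which 461 kept their side of the threshold, 14 lost a call and 7 gained one. In 1 more the call was lost and the sign changed. That was NTRK2 between Brain and Fibroblast, at -0.12 ± 0.13 by its dimmer probe set (adjusted p 0.545). A change of sign with no call on either side was seen in 12 other values. Calls among the 9 genes between SKN and Fibroblast numbered 1 in the main fit, 1 to 2 with 1 array removed (2 without Fibroblast 2) and 2 with array weights, BDNF being the addition. Pathway genes called between SKN and Fibroblast numbered 8, against 3 to 10 with 1 array removed (5 on removing SKN 1, 3 on removing Fibroblast 2 or Fibroblast 3), 4 with the arrays of the 2 groups alone, 3 without Fibroblast 1 and Brain 3 together and 2 without variance moderation. Over all named genes that comparison gave 726 calls, against 340 to 750 with 1 array removed (removing SKN 1 gave 410, SKN 3 gave 414, Fibroblast 2 gave 450 and Fibroblast 3 gave 340), 341 without Fibroblast 1 and Brain 3, and 328 without moderation. Without those 2 arrays, 2314 named genes were called between SKN and Brain (3608 in the main fit) and 2425 between Brain and Fibroblast (4308), where the fit has fewer samples. Deviations of same-numbered arrays correlated at -0.04 to 0.15, with the highest value for SKN 1 and Fibroblast 1, and 5 of 9 arrays correlated best with their own number. These values do not settle whether same-numbered arrays belong together, and the labels give no dog of origin. With the replicate number as a block, 1, 4 and 5 of the 9 genes were called in SKN minus Fibroblast, SKN minus Brain and Brain minus Fibroblast, BDNF being the 1 lost.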

Other observations

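DOK6, an adaptor that binds RET in human cells, read 4.42, 6.54 and 6.54 in SKN, 6.66, 8.10 and 7.71 in Brain, and 4.08, 6.54 and 6.54 in Fibroblast. It was named after its values were seen, because SKN 1 and Fibroblast 1 lie more than 2 log2 units under 4 arrays of nearly equal value. DOK6 was called in no comparison in the main fit (adjusted p 0.227 between SKN and Brain and 0.167 between Brain and Fibroblast), and with the replicate number as a block it was called in both (0.00816 and 0.0057).

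NRTN read 4.53 on all 3 SKN arrays, and its 2 probe sets held the same values on all 9 arrays. Across the table, 2662 probe sets had 9 values equal to those of another probe set, and 6.80% to 8.86% of probe sets per group had the same value, to the last digit deposited, on at least 2 arrays of that group, while 0 of the probe sets read for the 9 genes did. The GFRA1 values on SKN 2 and SKN 3 agree to 3 decimals and are not identical. Equal values within a group lower its estimated spread.

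Outside these pathways, MAP2, a dendritic microtubule protein of neurons, was read high in Brain, with 3.57 to 3.84 in SKN, 8.51 to 9.50 in Brain and 3.77 to 3.92 in Fibroblast, while the list of 12 measured neuron markers averaged 3.76 to 3.87 in SKN, 4.17 to 4.25 in Brain and 3.43 to 3.64 in Fibroblast.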
